A study of Saccharomyces cerevisiae with 6 samples.

Results

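The genes of ribonucleotide reductase and of its control by the Dun1 kinase were followed in budding yeast with and without NPL3. They were RNR1, RNR2, RNR3, RNR4, HUG1, SML1, RFX1, DIN7 and DUN1, chosen by gene symbol from the annotation of the array, and they are 9 of the 5449 genes measured. Each had 1 probe set, and none of these probe sets is of the kind that can match several transcripts. The groups were 3 arrays of wild type cells and 3 arrays of npl3 deletion cells, each hybridised with labelled cRNA from the total RNA of 1 culture, a biological replicate per the labels, in mid-log growth in rich glucose medium. By the labels, all cells were MATa haploids of the W303-1A background with a deletion of BAR1 marked with HphMX. Both genotypes are labelled with the alleles ura3-1, his3-11,15, trp1-1, can1-100 and ade2-1 and with the same mutant leu2 allele. The deletion cells in addition carry KanMX in place of NPL3, the gene of an mRNA-binding protein that acts in mRNA processing and export. The 3 deletion arrays bear 1 strain name, so any other difference of that strain from wild type cannot be told apart from the loss of NPL3.

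Ribonucleotide reductase converts ribonucleotides to deoxyribonucleotides and so sets the supply of building blocks for DNA. The yeast enzyme pairs a large subunit, Rnr1 or its paralog Rnr3, with a small subunit made of Rnr2 and Rnr4. Small proteins restrain it: Sml1 binds the large subunit and Hug1 binds the small one. When replication stalls or DNA is damaged, the kinases Mec1 and Rad53 activate Dun1, which marks Sml1 for destruction and inactivates Rfx1, the repressor of RNR2, RNR3, RNR4 and HUG1. High transcript levels of RNR3 and HUG1 are widely used as a readout of that response.

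The values are log2 expression values as deposited, so a difference of 1 is a 2-fold change, and levels of different genes are not comparable. NPL3 itself read 11.15 ± 0.35 in wild type and 3.96 ± 0.14 in the deletion (mean ± SD, n = 3 arrays each), as the labels require. BAR1 lay below the background level of 2.13 in both groups, and the 5 other a-cell markers had group means of 6.09 to 11.2. The 4 alpha-cell markers had group means of 3.13 to 7.86 and so were not at the background level. LEU2 went from 2.85 in wild type to 8.51 in the deletion, a rise of 5.66, with the leu2 allele labelled identically in both genotypes. The labels do not account for this rise, and whether the genotypes share the leu2 allele was not tested. Spiked hybridization controls averaged 9.12 to 9.27 on the wild type arrays and 7.83 to 8.99 on the deletion arrays. All 27 were lower in the deletion, with a median difference of -0.81. The 12 labelling controls were all higher in the deletion, by a median of 0.46. These differences run along with genotype, so their part in the results below cannot be told apart from it and was not tested. The 9 genes lie on 7 chromosomes, and none lies on chromosome I, whose 90 tested genes had a median difference of 0.83, next to 0.01 for all genes. Why chromosome I differs, and whether that bears on genes of other chromosomes, was not tested. All readings of the 9 genes were above background, the lowest being 6.10.

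In the deletion 6 of the 9 genes changed, 3 lower and 3 higher, by limma's moderated test at an adjusted p below 0.05. RNR3, HUG1 and RNR1 fell, DIN7, RFX1 and DUN1 rose, and RNR2, RNR4 and SML1 did not pass the test. Of all genes tested, 61.8% were called, 32.9% higher and 28.9% lower, so a count of 6 of 9 is near that of the array as a whole and says nothing particular about these genes. A change of at least 1.5-fold was called for 3 of the 9, against 16.9% of all genes, with DIN7 higher (8.28% of all genes) and RNR3 and HUG1 lower (8.66%). The median difference of the 9 was 0.02, next to 0.01 for all genes, and the median size of a difference regardless of sign was 0.37 for the 9 and 0.23 for all genes. The groups did not overlap for 7 of the 9, against 68.8% of all genes. In RNA from whole cultures, fewer cells with a transcript and less transcript per cell cannot be told apart.

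**Figure D1:**
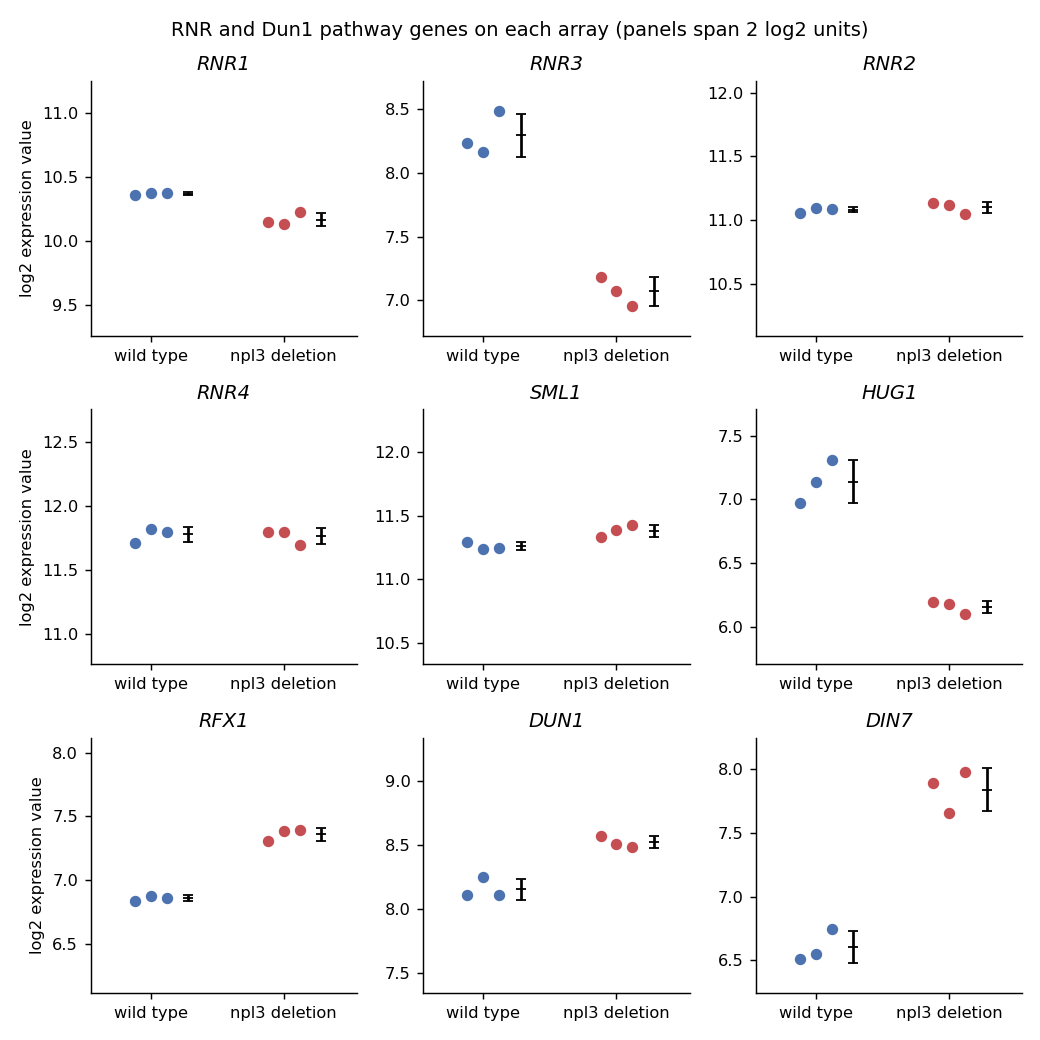
Log2 expression values of the 9 genes on each array, in panels that all span 2 log2 units, with blue points for wild type, red points for the npl3 deletion, and a bar for mean ± SD (n = 3 arrays). RNR3, HUG1 and DIN7 show the widest gaps between the groups (0.98, 0.78 and 0.90), while the points of RNR2 and RNR4 overlap.

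The large subunit genes fell by different amounts. RNR1 (YER070W, chromosome V), which encodes the large subunit used in normal S phases, read 10.36, 10.37 and 10.38 on the wild type arrays and 10.15, 10.13 and 10.22 on the deletion arrays. The deletion arrays were all lower, with a gap of 0.14 between the groups. RNR1 fell by 0.20 (SE 0.05, limma adjusted p = 0.0061), which leaves 0.868 of the wild type level with a 95% interval of 0.806 to 0.936. The fall was small for this comparison, since 54.9% of all genes differed by at least as much. RNR3 (YIL066C, chromosome IX), the damage-inducible large subunit, read 8.23, 8.16 and 8.48 in wild type and 7.18, 7.08 and 6.96 in the deletion. Every deletion array was lower than every wild type array, with a gap of 0.98. RNR3 fell by 1.22 (SE 0.09, limma adjusted p = 2.64e-05), to 0.429 of the wild type level with a 95% interval of 0.37 to 0.50. Of all genes, 133 fell by at least as much, RNR3 included.

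The small subunit genes showed no difference beyond the spread of the arrays. RNR2 (YJL026W, chromosome X), which encodes the subunit that carries the iron and radical cofactor, read 11.06, 11.09 and 11.09 in wild type and 11.13, 11.12 and 11.05 in the deletion. The groups overlapped, with a difference of 0.02 (SE 0.05, limma adjusted p = 0.727). RNR4 (YGR180C, chromosome VII), which encodes its partner in the small subunit, read 11.71, 11.82 and 11.80 in wild type and 11.80, 11.80 and 11.70 in the deletion. These groups overlapped as well, with a difference of -0.01 (SE 0.05, limma adjusted p = 0.857). The 95% intervals of the ratio, deletion over wild type, ran from 0.942 to 1.09 for RNR2 and from 0.909 to 1.08 for RNR4. A change of 1.5-fold lies outside both intervals. The sign of the RNR4 difference was not stable, as it became positive at 0.01 under quantile normalization. Of the 4 genes named above as repressed by Rfx1, RNR3 and HUG1 fell, and RNR2 and RNR4 were not called.

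Of the 2 small inhibitors, HUG1 fell and SML1 did not pass the test. The genes neighbour each other on chromosome XIII in the R64 reference table. HUG1 (YML058W-A), an Rfx1 target whose product binds the small subunit, read 6.97, 7.14 and 7.31 in wild type and 6.19, 6.18 and 6.10 in the deletion. The deletion arrays lay close together and all below wild type. HUG1 fell by 0.98 (SE 0.08, limma adjusted p = 4.18e-05), to 0.506 of the wild type level with a 95% interval of 0.442 to 0.580. Of all genes, 215 fell by at least as much, HUG1 included. SML1 (YML058W), whose product is removed on Dun1's signal, read 11.30, 11.24 and 11.24 in wild type and 11.33, 11.39 and 11.42 in the deletion. Its groups did not overlap, but the gap was only 0.04. The difference of 0.12 (SE 0.05) missed the threshold at a limma adjusted p of 0.055. SML1 passed the threshold without npl3 deletion replicate 1, with a difference of 0.14 (limma adjusted p = 0.047). Sml1 is controlled through its breakdown as a protein, which these arrays do not measure.

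RFX1 and DUN1 both rose, by less than 1.5-fold. RFX1 (YLR176C, chromosome XII), the repressor of the damage-inducible RNR genes, read 6.84, 6.88 and 6.86 in wild type and 7.30, 7.38 and 7.40 in the deletion. All deletion arrays were higher, with a gap of 0.43 between the groups. RFX1 rose by 0.50 (SE 0.05, limma adjusted p = 6.76e-05), a ratio of 1.42 with a 95% interval of 1.31 to 1.53. DUN1 (YDL101C, chromosome IV), the checkpoint kinase that acts on Rfx1 and Sml1, read 8.11, 8.25 and 8.11 in wild type and 8.57, 8.51 and 8.49 in the deletion. The groups were 0.23 apart. DUN1 rose by 0.37 (SE 0.06, limma adjusted p = 9.22e-04), a ratio of 1.29 with a 95% interval of 1.18 to 1.42. The rises of RFX1 and DUN1 were matched or exceeded in size by 21.7% and 32.4% of all genes. Transcript levels do not show kinase activity or how much repressor is bound to DNA.

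DIN7 rose the most. It encodes a damage-inducible nuclease of the mitochondria and is the paralog of the nuclear exonuclease gene EXO1. DIN7 (YDR263C, chromosome IV) read 6.51, 6.55 and 6.75 in wild type and 7.89, 7.65 and 7.98 in the deletion. The lowest deletion array was 0.90 above the highest wild type array. DIN7 rose by 1.24 (SE 0.10, limma adjusted p = 2.78e-05), a ratio of 2.36 with a 95% interval of 2.02 to 2.76. Of all genes, 90 rose by at least as much, DIN7 included. EXO1 went from 8.29 ± 0.06 to 8.83 ± 0.09 (n = 3 arrays each) and rose by 0.55 (SE 0.06, limma adjusted p = 1.55e-04). Of the 3 genes past 1.5-fold, DIN7 rose where RNR3 and HUG1 fell. All 3 are known as damage-inducible, a trait that is not particular to them among the 9.

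**Figure D2:**
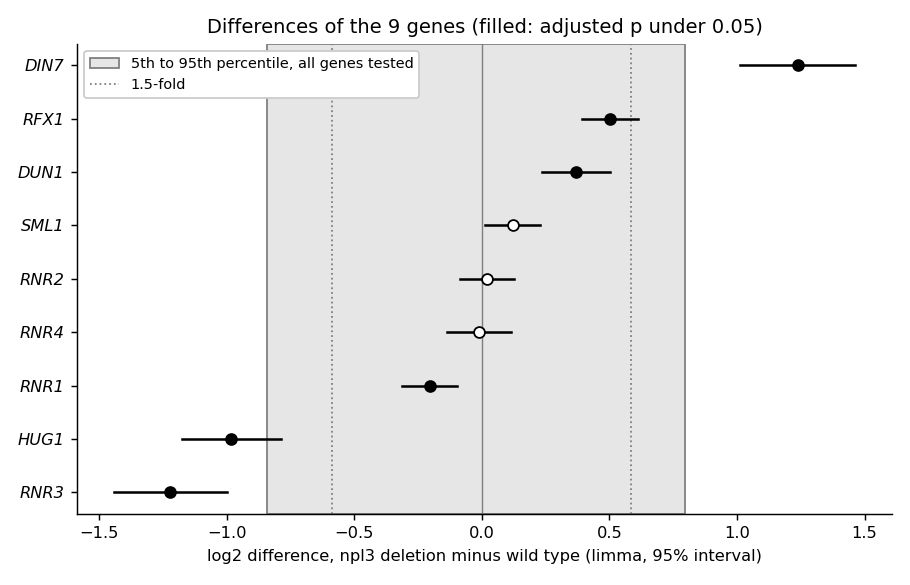
Log2 difference of each of the 9 genes, npl3 deletion minus wild type, as points with 95% intervals from limma, filled where the adjusted p was below 0.05. The grey band holds the 5th to 95th percentile of all genes tested (-0.84 to 0.80) and the dotted lines mark 1.5-fold, so that RNR3 (-1.22), HUG1 (-0.98) and DIN7 (1.24) lie outside the band and the other 6 inside.

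Whether related genes changed unequally was examined as the log2 ratio of 2 genes on the same array, which also removes any scale factor of that array. Relative to the wild type mean, the ratio of RNR3 to RNR1 was -0.05, -0.13 and 0.18 in wild type and -0.89, -0.98 and -1.19 in the deletion. The group means differed by -1.02 on the log2 scale, with every deletion array below every wild type array. The ratio of HUG1 to SML1 was -0.20, 0.02 and 0.19 in wild type and -1.02, -1.09 and -1.20 in the deletion, a difference of -1.10. The ratio of RNR1 to RNR2 differed by -0.22, from a wild type spread of 0.01 to a deletion spread of 0.09 (SD, n = 3 arrays each). The ratio of RNR3 to HUG1, the genes with the largest falls of the 9, differed by -0.24. In these 4 pairs the groups did not overlap, and each gave an exact two-sided permutation p of 0.1, the smallest that 3 arrays against 3 allow, or 0.125 after adjustment over the 5 pairs. Among single genes, the groups did not overlap for 68.8% of all genes, and ratios of other pairs were not examined. The count of pairs without overlap is therefore no result about these genes. The ratio of RNR2 to RNR4 differed by 0.03 with overlapping groups (exact permutation p = 0.3, adjusted p = 0.3).

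**Figure D3:**
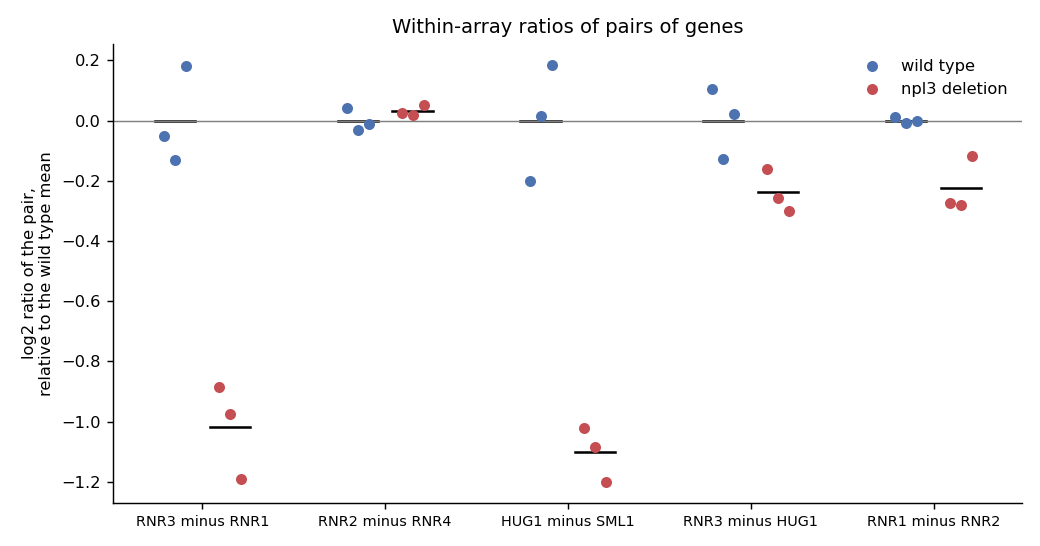
Log2 ratio of 2 genes on each array, relative to the mean of the wild type arrays, for 5 pairs of the genes, with blue points for wild type, red points for the npl3 deletion and black lines for the means. The ratios of RNR3 to RNR1 and of HUG1 to SML1 drop by about the same amount (-1.02 and -1.10), and that of RNR2 to RNR4 stays near 0.

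Other genes of the pathway were taken in 5 lists, of which 69 of 70 genes were tested. In all, 14 rose and 19 fell, while 36 did not pass the test, and the median difference was 0.0025. Of all genes, 32.9% were called higher and 28.9% lower. No gene of these lists was called with a rise of at least 1.5-fold, against 8.28% of all genes, and 8 of the 69 with such a fall, against 8.66%. The counts of the single lists below stand beside the same shares, and nothing particular to a list is read from them. Among 15 regulators of the enzyme's genes and location, 3 rose and 5 fell, while 7 were not called (median -0.08). ROX1, a repressor of hypoxic genes, fell by 0.59 (SE 0.07, limma adjusted p = 3.08e-04). WTM1 and WTM2, which hold the small subunit in the nucleus, fell by 0.53 and fell by 0.52. DIF1, the SML1 paralog that brings the small subunit into the nucleus, differed by 0.04 and was not called.

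Among 17 genes of a checkpoint list headed upstream of Dun1, 6 rose, 4 fell and 7 were not called (median 0.08). Of all genes, 61.8% were called. The heading is loose, since CHK1, with the largest rise of this list (0.42), encodes a kinase that acts beside Dun1. The kinase genes MEC1 and RAD53 differed by -0.11 and 0.13 and were not called (limma adjusted p = 0.083 and 0.060). The largest fall was that of PTC2, a phosphatase that switches Rad53 off, which went from 9.34 ± 0.11 to 7.74 ± 0.03 (n = 3 arrays each). PTC2 fell by 1.60 (SE 0.06, limma adjusted p = 1.09e-06). PSY2, a subunit of another Rad53 phosphatase, fell by 0.67 (SE 0.08, limma adjusted p = 2.09e-04). No other gene of this list passed 1.5-fold.

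Of 11 genes that supply the enzyme with electrons and iron, 1 rose, 3 fell and 7 were not called (median 0.02). DRE2, an iron-sulfur protein needed to build the cofactor of Rnr2, fell by 0.74 (SE 0.10, limma adjusted p = 4.18e-04). Of 9 other genes of dNTP synthesis, 1 rose, 1 fell and 7 were not called (median 0.05). The gene that fell was DFR1, dihydrofolate reductase, which went from 8.34 ± 0.09 to 6.90 ± 0.08 (n = 3 arrays each) and fell by 1.44 (SE 0.07, limma adjusted p = 2.06e-06). The gene that rose was CDC21, thymidylate synthase, by 0.31.

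Of 17 tested damage-inducible genes outside the 9, 3 rose, 6 fell and 8 were not called (median -0.05), where 32.9% of all genes rose and 28.9% fell. DDR2, which also responds to general stress, fell by 1.92 (SE 0.13, limma adjusted p = 1.25e-05). PHR1, the photolyase, fell by 1.27 (SE 0.12, limma adjusted p = 8.84e-05). DDI1, a ubiquitin receptor, fell by 0.87 (SE 0.13, limma adjusted p = 7.44e-04). EXO1 had the largest rise of this list. The median size of a difference over the 69 genes was 0.13, below the 0.23 of all genes.

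**Figure D4:**
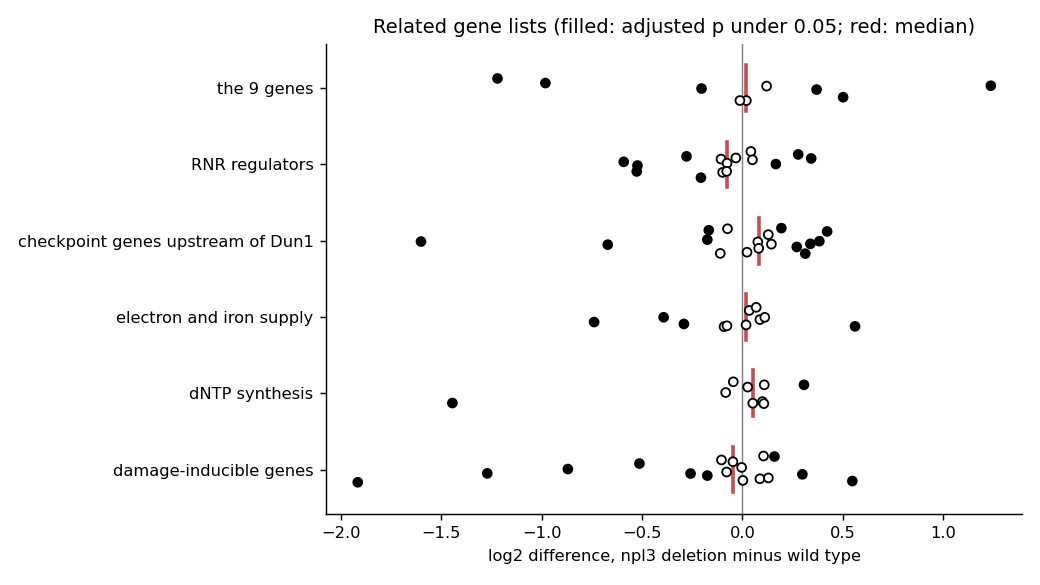
Log2 difference, npl3 deletion minus wild type, of every tested gene in the 9 and in the 5 related lists, filled where the limma adjusted p was below 0.05, with the median of each list in red. The medians lie between -0.08 and 0.08, and the points farthest from 0 are DDR2 (-1.92), PTC2 (-1.60) and DFR1 (-1.44).

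For the 3 genes past 1.5-fold, the genes with the most similar profiles were searched among 5403 genes above background, by the root mean square distance of values centred on each gene's mean over the 6 arrays. Nearest to RNR3 were ALD3, an aldehyde dehydrogenase gene (distance 0.070, difference -1.30), SRL1, a cell wall mannoprotein gene named for suppressing the lethality of rad53 mutants (0.070, -1.23), and YJR096W (0.072, -1.27). Nearest to HUG1 were YPC1, a ceramidase gene (0.048, -1.02), SUE1 (0.050, -0.96) and HSP104, the disaggregase gene (0.053, -1.01). Nearest to DIN7 were YOR293C-A (0.076, 1.30), the cell wall mannoprotein gene TIR4 (0.087, 1.26) and YJR149W (0.092, 1.16). With 6 arrays in 2 groups, genes with a similar difference between the groups lie near each other by this measure.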

How the data were processed

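Expression was measured on 6 Affymetrix yeast arrays, 3 per genotype. On each array the authors deposited 1 log2 value for every probe set. The submitters' processing notes list RMA and limma without a version or settings. These values were normalized by the authors (array medians 4.81 to 4.98) and not again for the main results, and RMA hides a change shared by most transcripts. Of 10928 probe sets, 5498 matched genes of the R64 table through the platform annotation, and the brightest stood for each of 5449 genes. Background is the 95th percentile, over probe sets, of the mean of the 1746 unmatched ones. The 2 groups were compared in R 4.3.3 with limma 3.58.1 (lmFit, eBayes, two-sided), adjusted by Benjamini-Hochberg over 5449 genes. All adjusted p-values of single genes come from this fit. The procedure was also run on simulated arrays with independent noise and a small share of genes changed, all upward. The data differ from those arrays in these respects, so that run does not test the calls made here. Python 3.11.15 with SciPy 1.17.1 made the permutation tests. The number of arrays limits the precision.

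The 9 genes and the lists were chosen with earlier results of these data known. The rule for named genes takes the 9, the genes in the strain labels, up to 3 called rises and 3 called falls past 1.5-fold per list, and the 3 nearest profiles for each of the 9 that was called past 1.5-fold. EXO1, WTM1, WTM2, DIF1, MEC1, RAD53, CDC21 and the neighbouring genes were named for their roles or places after their values were seen. Alternatives covered scaling, dim genes, the variance model, array weights, probe sets, thresholds, the replicate number as a block and each array left out.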

Additional observations from a re-analysis of the deposited data

How the results depend on the processing

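RNR3, HUG1, DIN7 and RNR2 kept their direction and their side of the threshold under all 17 alternatives, with RNR3 at -1.31 to -1.12, HUG1 at -1.06 to -0.90 and DIN7 at 1.17 to 1.33. RNR1, RFX1 and DUN1 did so under 16, and fell short where 1.5-fold was required. SML1 was called under 3: array weights, a variance model with a trend and robust fitting, and without npl3 deletion replicate 1. RNR4 turned positive under quantile normalization (0.0129), without wild type replicate 2 (0.00895) and without npl3 deletion replicate 3 (0.0225), ran from -0.045 to 0.0225 as arrays were left out, and was not called in any of them. Requiring 1.5-fold lowered the counts by construction, to 3 of the 9 genes, 8 genes of the 5 lists and 923 of all genes. With each array left out in turn, 6 to 7 of the 9 genes, 26 to 31 genes of the lists and 2926 to 3288 of all genes were called. The replicate numbers did not pair the arrays (correlation of deviations -0.14, -0.07 and -0.19 for the same numbers), and with the replicate number as a block 6 of the 9 genes and 3035 of all genes were called. Leaving out arrays moved the ratio of RNR3 to RNR1 to between -1.08 and -0.93, and that of HUG1 to SML1 to between -1.20 and -1.01.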

Other observations

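Of 14 tested genes next to the 9 on the chromosomes of the R64 table, 9 were called, 7 higher and 2 lower, which is near the 61.8% of all genes and is no result about the neighbours. NTE1, a phospholipase gene on the other side of HUG1 from SML1, fell by 0.86 (SE 0.06, limma adjusted p = 1.91e-05), close to the fall of HUG1 itself. CMP2, a calcineurin gene on the far side of SML1, rose by 0.24 (limma adjusted p = 0.032). GET3 and POL3, the neighbours of DUN1, rose by 0.44 and 0.28 beside the rise of 0.37 in DUN1. AKR1, next to DIN7, fell by 0.50 where DIN7 rose, and YDR262W on the other side of DIN7 rose by 0.20 (limma adjusted p = 0.015). YIL067C, next to RNR3, differed by -0.02 and was not called, and FIS1 on its other side rose by 0.25. YJL027C, next to RNR2, rose by 1.06 (limma adjusted p = 5.85e-04), where RNR2 differed by 0.02. RRN7, on the other side of RNR2, rose by 0.25. CBF5 and YLR177W, the neighbours of RFX1, differed by 0.06 and 0.05 and were not called, where RFX1 rose by 0.50. TDA2, next to RNR1, and OKP1, next to RNR4, differed by 0.15 and 0.09 and were not called.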
